A study of Mus musculus with 6 samples.

Results

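Mitochondrial protein import genes were followed in pre-B cells of the Eμ-Myc mouse across 3 stages. They were taken as the protein-coding genes of the GENCODE vM1 annotation whose symbol begins with Timm or Tomm and a digit, together with Chchd4, Dnajc19, Pam16, Pmpca, Pmpcb, Hspa9, Grpel1 and Samm50. This gave 30 genes of 37991 in the count files, of which 22337 were protein coding. Wild type cells came from C57BL/6 mice aged 4 to 6 weeks, premalignant cells from Eμ-Myc mice aged 4 to 6 weeks, and malignant cells from Eμ-Myc mice aged 10 to 20 weeks that had developed spontaneous lymphoma. The transgene, carried as a heterozygote on the C57BL/6 background, places Myc under the immunoglobulin heavy chain enhancer, which is active in the B lineage. The labels give 1 gate for all stages, bone marrow cells with high B220, low IgM and low IgD, whereas the study's methods give this gate for wild type and premalignant mice and sort the transformed pre-B cells of malignant mice as positive for B220 and negative for IgM and IgD. Polyadenylated RNA was sequenced in 2 libraries a stage, giving 6 in all. Malignant mice were also the older mice, and by the methods they were of both sexes where the other stages used females, so malignancy cannot be told apart from age, gate or sex. Of the genes described here, Timm17b and Timm8a1 lie on the X chromosome. Each malignant library could be dominated by the clone of 1 lymphoma.

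Nearly all mitochondrial proteins are made in the cytosol and cross the mitochondrial membranes as unfolded chains. The TOM complex of the outer membrane admits them, after which the SAM complex inserts β-barrel proteins into the outer membrane, the disulfide relay and the small Tim chaperones handle proteins of the intermembrane space, and the TIM22 and TIM23 translocases serve the inner membrane. A motor built around the chaperone mtHsp70, encoded by Hspa9, pulls proteins with a presequence into the matrix, where the processing peptidase removes the presequence. Myc is a transcription factor known for raising genes of ribosome and mitochondrial biogenesis in growing cells.

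The libraries held between 30031100 and 53453055 counts on genes, and a gene was taken as detected from 3 counts, a level that ranged from 0.0526 to 0.108 CPM over the libraries. CPM here are counts scaled to a common library size after trimmed mean (TMM) normalization. Myc, the gene that the transgene expresses, followed the stage labels, with 33.8 and 41.4 CPM in wild type, 1164 and 1155 CPM in premalignant and 1732 and 1578 CPM in malignant cells. The B-lineage genes Cd79a, Cd79b, Pax5 and Ptprc were present in every library. By contrast, the pre-B and early B genes Vpreb1, Igll1 and Dntt, at between 114 and 264 CPM in the wild type libraries, were at between 0.10 and 7.56 CPM in the malignant libraries. Markers of other cells were most abundant in wild type libraries. The summed level of 6 myeloid markers was 719 and 1600 CPM in wild type, 215 and 228 CPM in premalignant and 47.4 and 90.8 CPM in malignant libraries. The sum of 4 erythroid markers was 291 and 1075 CPM, 59.3 and 137 CPM, and 51.8 and 57.1 CPM in the same order, that of 4 T and NK cell markers lay between 41.5 and 85.5 CPM in wild type and between 0.418 and 14.3 CPM in the other libraries, and that of 3 plasma cell markers between 81.0 and 82.9 CPM and between 3.77 and 30.4 CPM. None of these markers was at 0 in every library. Their part in the differences between stages was not tested, and in bulk RNA fewer cells of a type and less RNA per cell cannot be told apart.

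Transcripts of the import machinery were more abundant at both Eμ-Myc stages than in wild type cells. The summed level of the 30 genes was 1284 and 1175 CPM in the wild type libraries, 2802 and 2847 CPM in the premalignant libraries and 3397 and 3587 CPM in the malignant libraries. The premalignant mean was thus 2.30 times and the malignant mean 2.84 times the wild type mean, and the libraries of the 3 stages did not overlap. These are ratios of scaled counts and not of amounts per cell. As a share of all counts, with no scaling, the sum was 0.143% (Wilson 95% interval 0.142 to 0.144) and 0.133% (0.131 to 0.134) in wild type, 0.275% (0.274 to 0.276) and 0.274% (0.272 to 0.275) in premalignant, and 0.306% (0.305 to 0.308) and 0.333% (0.331 to 0.335) in malignant libraries. These intervals cover counting error only. The unscaled ratios to wild type were 1.99 and 2.32. A large part of the sum came from Hspa9, which supplied 11.8% and 12.1% of it in wild type, 21.2% and 21.9% in premalignant and 21.6% and 27.1% in malignant libraries. Without Hspa9, the sum was still 2.05 times the wild type mean in premalignant and 2.44 times in malignant cells. With 2 libraries a stage, an exact two-sided permutation test cannot reach below p = 0.333 for a sum of this kind, so these ratios stand as measurements.

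**Figure D1:**
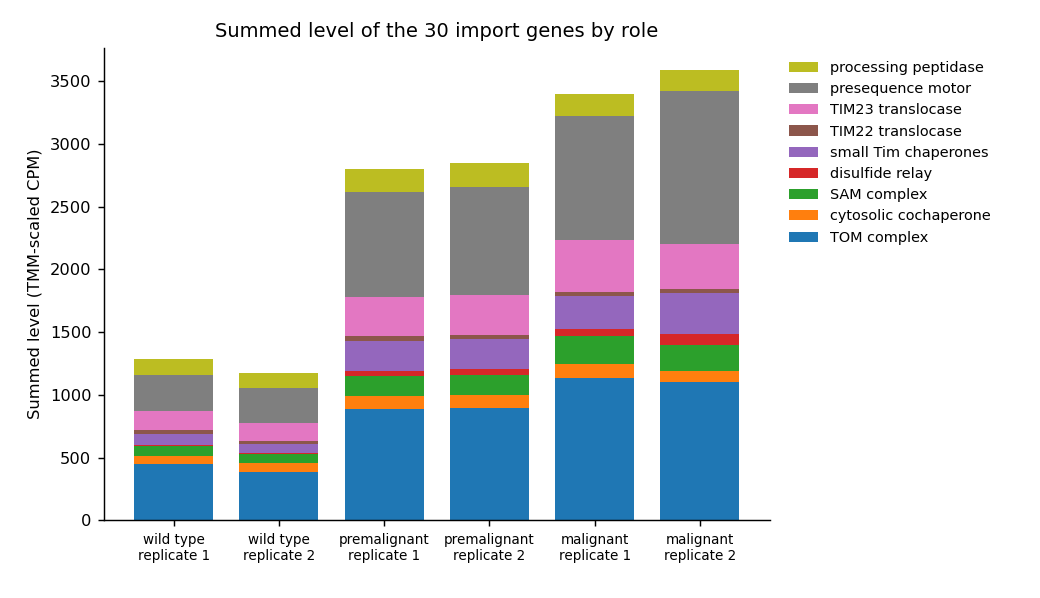
Bars show the summed level of the 30 import genes in each library, in TMM-scaled CPM, stacked by role. The premalignant bars reach 2802 and 2847 CPM and the malignant bars 3397 and 3587 CPM, against 1284 and 1175 CPM in wild type, with the presequence motor and the TOM complex the thickest bands.

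The shift was broad. In edgeR's quasi-likelihood test, calls needed a false discovery rate (FDR) no larger than 0.1 and a log2 fold change beyond 0.5 in either direction. By these thresholds, 25 of the 28 genes tested were higher in malignant cells than in the wild type and 0 were lower. Of all 16683 genes tested, 24.9% were called higher and 24.3% lower in that comparison. In premalignant against wild type cells, 22 of the 28 were higher and 0 lower, against 19% and 20.3% of all genes. At an unadjusted p under 0.05, 0 of the 28 were lower in either comparison, though the share of all genes at that cutoff is not given. DESeq2 also called 0 lower, where it called 4015 of 18457 genes lower in malignant and 3247 of 17955 in premalignant cells. The median log2 fold change of the 28 genes was 1.07 in malignant and 0.98 in premalignant cells, where the medians of all genes tested were -0.02 and -0.08. Malignant and premalignant cells were set against the same wild type libraries, so the values of both are given side by side. The remaining genes, Timm8a2 and Tomm20l, had too few counts to be tested.

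**Figure D2:**
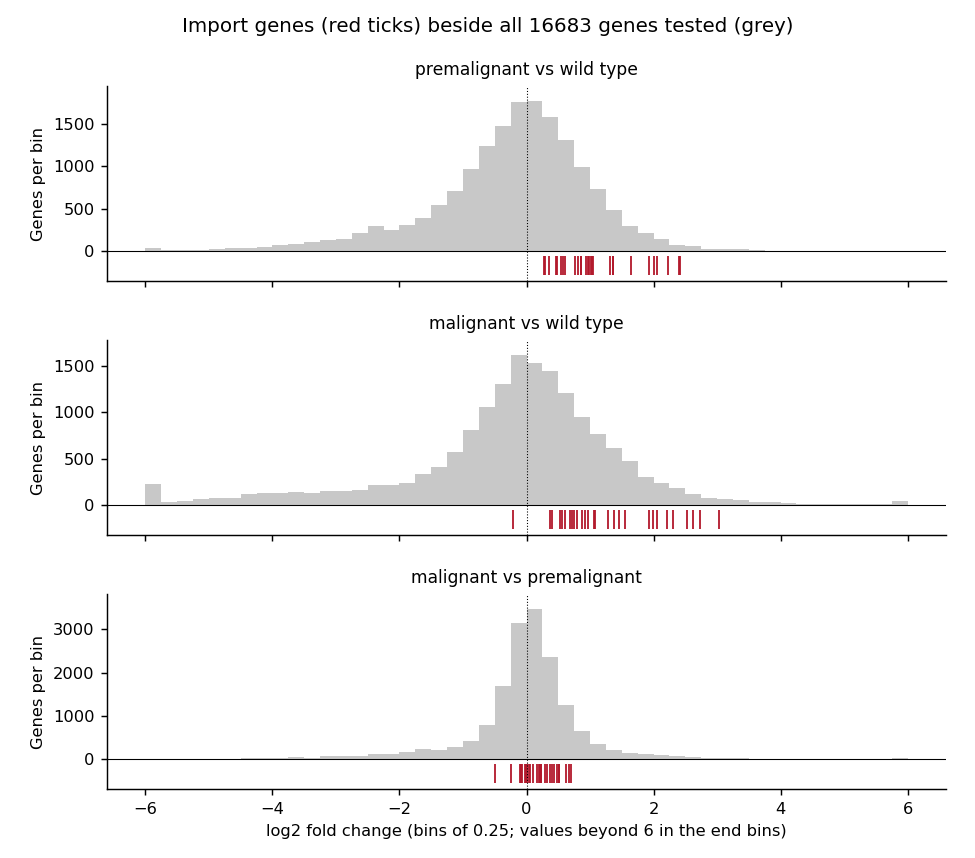
Grey bars count all genes tested by log2 fold change in bins of 0.25, and red ticks mark the 28 import genes. The ticks lie to the right of 0 in premalignant against wild type cells, with Timm17b alone to the left in malignant against wild type cells, and they spread from -0.49 to 0.69 in malignant against premalignant cells.

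The count was also taken without each library. Without wild type replicate 2, which had the highest myeloid and erythroid sums, 22 genes were higher in malignant and 16 in premalignant cells. Without wild type replicate 1, 21 genes were higher in each. Of the 28 genes, 19 were called higher in malignant cells in each of 14 fits with other settings or 1 library fewer, the fit reported here included, and 14 were called higher in premalignant cells in each of them. In malignant cells, calls were lost without wild type replicate 1 (Pam16, Tomm34, Tomm40l and Tomm6), without wild type replicate 2 (Dnajc19, Tomm40l and Tomm6), without either premalignant library (Pam16, Tomm40l and Tomm6) and without malignant replicate 1 (Pmpca, Tomm34 and Tomm40l). In premalignant cells, Timm13, Timm17a, Timm44, Timm8b, Tomm22, Tomm34, Tomm6 and Tomm70a were no longer called without either premalignant library, which left 14. Their log2 fold changes in those fits ran from 0.58 to 1.09, against 0.58 to 1.05 in the fit reported here.

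**Figure D3:**
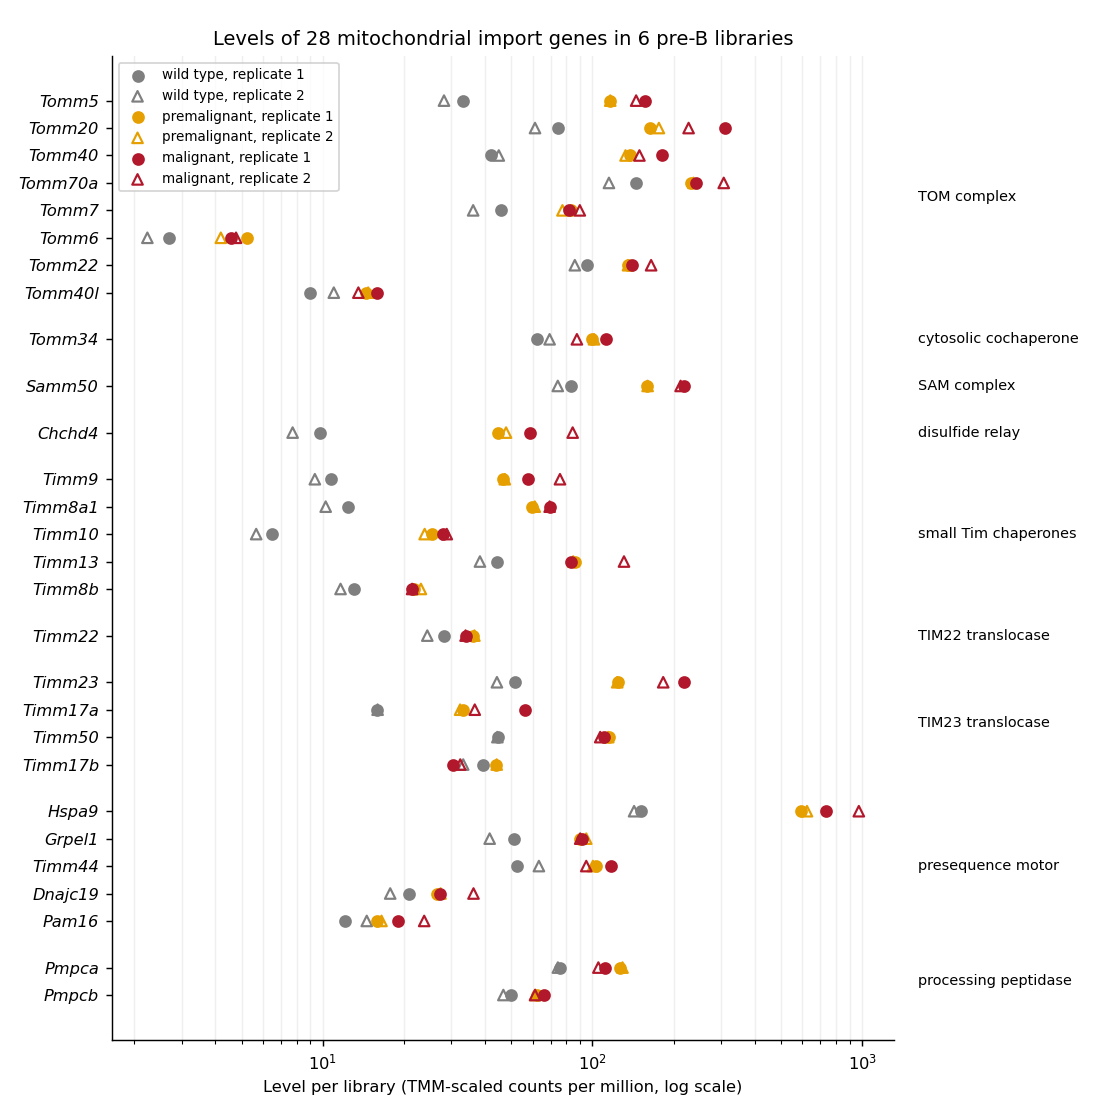
Points give the level of each of the 28 tested genes in each library, in TMM-scaled CPM on a log axis, with filled circles for replicate 1 and open triangles for replicate 2. Both wild type points lie below both premalignant points for all 28 genes, while premalignant and malignant points often lie together. The share of all genes separated from wild type in this way is not given, so the count is a description only.

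Transcripts of most TOM complex genes were higher at both Eμ-Myc stages. All 8 tested genes of the complex were called higher in malignant cells, with log2 fold changes from 0.56 to 2.30, and 7 of 8 in premalignant cells. Tomm5, a small subunit next to the pore, had the largest change of the 8, from 33.1 and 28.1 CPM in wild type to 117 and 116 CPM in premalignant and 157 and 145 CPM in malignant libraries. Its log2 fold changes were 1.93 ± 0.14 (SE) in premalignant and 2.30 ± 0.15 in malignant cells, with edgeR adjusted p-values of 0.00168 and 0.00054.

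Tomm40, which forms the channel itself, rose from 42.0 and 44.9 CPM in wild type to 138 and 133 CPM in premalignant and 181 and 149 CPM in malignant libraries. Its log2 fold changes were 1.64 ± 0.15 and 1.93 ± 0.15 (edgeR adjusted p = 0.00203 and 0.000691). Its paralogue Tomm40l was far less abundant and had smaller fold changes, though differences between genes were not tested. It measured 8.99 and 10.99 CPM in wild type, 14.4 and 14.7 CPM in premalignant and 15.9 and 13.6 CPM in malignant libraries, without overlap between wild type and the other stages. The log2 fold change of Tomm40l passed the thresholds in malignant cells (0.56 ± 0.22, edgeR adjusted p = 0.0866) and not in premalignant cells (0.55 ± 0.22, edgeR adjusted p = 0.11). In each comparison it was called in 4 of the 14 fits. Exons of Nr1i3 on the opposite strand cover 67.8% of the exonic bases of Tomm40l, and the library kit does not mark the strand, so part of its counts may belong to Nr1i3.

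Among the receptors, Tomm20, which recognizes presequences, rose most. Its levels were 74.4 and 61.2 CPM in wild type, 163 and 176 CPM in premalignant and 311 and 227 CPM in malignant libraries, and the stages did not overlap. The log2 fold changes were 1.32 ± 0.20 in premalignant and 1.99 ± 0.20 in malignant cells (edgeR adjusted p = 0.00607 and 0.00117). Tomm70a, the receptor for carrier precursors that arrive with cytosolic chaperones, had log2 fold changes of 0.85 and 1.08, and the central receptor Tomm22 had 0.58 and 0.75. Per kilobase of exon, Tomm22 was the most abundant of all 28 genes in wild type cells, at 81.5 ± 5.98 RPKM (SD, n = 2), and moved to the fourth place in malignant cells, at 137 ± 15.95 RPKM. Hspa9, Tomm20 and Tomm5 then stood above it, at 217 ± 42.8, 191 ± 42.1 and 174 ± 9.65 RPKM, values that differed from each other by no more than about their spread.

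The small subunits Tomm7 and Tomm6, which help to assemble and stabilize the complex, had log2 fold changes of 1.07 and 0.92 in malignant cells and 0.97 and 0.93 in premalignant cells. Tomm6 was the least abundant gene tested, at between 2.24 and 5.22 CPM, and 84.2% of its exonic bases are shared with exons of Gm14872, Prickle4 and Usp49, so that its counts are uncertain. Tomm20l, the paralogue of Tomm20, was not detected in any wild type or premalignant library nor in malignant replicate 1, with 0 counts in each, and had 2 counts in malignant replicate 2. That is under the limit of 3 counts, which corresponds to at most 0.108 CPM.

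Copies elsewhere in the genome touch several of these genes. Of the 50-base stretches in their exons, 54.0% in Tomm20, 47.0% in Tomm5 and 24.97% in Tomm22 also occur at other places in the mm9 genome, as do 56.7% in Timm23, 47.7% in Pam16 and 80.7% in Timm8a1. For each of the other 24 genes the share was at most 8.97%. Reads from such stretches may have been left out or placed on a copy, or reads of a copy may have been placed on the gene. The level of the gene against others is therefore uncertain in either direction, and its fold changes and ratios between stages may be affected as well. How much of each count came from such reads was not tested. Exons of other genes overlap those of 13 of the import genes. Among these, AU019823 covers 15.4% of the exonic bases of Timm8b and Tada2b 11.65% of those of Grpel1, both on the opposite strand. SNORA74, on the same strand, covers 5.82% of those of Timm23.

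Tomm34, a cytosolic cochaperone of import despite its name, had log2 fold changes of 0.61 ± 0.16 in premalignant and 0.60 ± 0.16 in malignant cells, and both passed the thresholds. Samm50, the core of the SAM complex, rose further, with log2 fold changes of 1.02 ± 0.13 and 1.45 ± 0.13 (edgeR adjusted p = 0.00374 and 0.000869).

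The largest rise of the import genes in malignant cells was that of Chchd4, the oxidoreductase of the disulfide relay (the mouse Mia40), which folds proteins of the intermembrane space by giving them disulfide bonds. Chchd4 (ENSMUSG00000034203, mm9 chr6:91414270-91423417, minus strand) measured 9.80 and 7.73 CPM in wild type, 44.8 and 47.8 CPM in premalignant and 58.8 and 84.4 CPM in malignant libraries. Every Eμ-Myc library lay far above both wild type libraries. The log2 fold changes were 2.40 ± 0.23 in premalignant and 3.03 ± 0.24 in malignant cells, or 8.15-fold in the latter (edgeR adjusted p = 0.00234 and 0.000716). By RPKM, Chchd4 moved from rank 25 of the 28 genes in wild type cells to rank 14 in premalignant and rank 10 in malignant cells.

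The small Tim chaperones, which are themselves substrates of this relay and escort hydrophobic precursors across the intermembrane space, followed. All 5 tested genes of the group rose at both stages, with a median log2 fold change of 2.01 in premalignant and 2.22 in malignant cells. The small Tim gene Timm10b, named Fxc1 in the annotation and so outside the symbol rule, did not, with -0.03 and 0.02. Timm9 (ENSMUSG00000021079, mm9 chr12:72224160-72237662, minus strand) measured 10.8 and 9.34 CPM in wild type, 46.5 and 47.3 CPM in premalignant and 57.5 and 75.7 CPM in malignant libraries. Its log2 fold change in malignant cells was 2.73 ± 0.19 (edgeR adjusted p = 0.00063). Timm10, which builds a hexamer with Timm9, rose alongside, from 6.50 and 5.66 CPM to 25.3 and 23.9 CPM and to 27.9 and 28.8 CPM, a log2 fold change of 2.22 ± 0.18 in malignant cells.

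Timm8a1 (ENSMUSG00000048007, mm9 chrX:131071795-131076404, minus strand), the mouse counterpart of the human deafness-dystonia gene, is the partner of Timm13. Its levels were 12.4 and 10.2 CPM in wild type, 59.6 and 61.1 CPM in premalignant and 69.7 and 69.4 CPM in malignant libraries. The log2 fold changes were 2.41 ± 0.16 and 2.61 ± 0.16, with edgeR adjusted p-values of 0.00147 and 0.00054. The partner Timm13 started from a higher level and had a smaller fold change, from 44.3 and 38.3 CPM in wild type to 86.5 and 84.8 CPM in premalignant and 83.2 and 131 CPM in malignant libraries (log2 fold change in malignant cells 1.37 ± 0.23). Timm8b, another member of the Timm8 family, had the smallest log2 fold changes of the 5, at 0.86 and 0.79. Timm8a2, the paralogue of Timm8a1, had 11 and 6 counts in wild type, 3 and 1 in premalignant and 6 and 6 in malignant libraries, too few to be tested.

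Because Myc binds E-boxes with its partner Max, the canonical E-box CACGTG, which reads the same on both strands, was looked for in promoter windows from RefSeq (build GRCm38.p6), reaching from 250 bases before to 50 bases after each annotated start. The matches are shown because 3 of the 5 genes that hold them are small Tim chaperones. Capitals mark CACGTG, and each line gives 30 bases of the gene's own strand, 5′ to 3′, with the position of the motif's first base counted from the annotated start, negative before it.
Timm10, chr2:84827037-84827066, plus strand, motif at 28: ccggaagtgaccCACGTGcttcttatttcg
Timm8a1, chrX:134541889-134541918, minus strand, motif at -236: ccttcagtggacCACGTGggatgaagcaac
Timm8a1, chrX:134541629-134541658, minus strand, motif at 24: ccgtcacccagaCACGTGaaggtcggcaag
Timm9, chr12:71136716-71136745, minus strand, motif at -58: cctacattttccCACGTGgtaacgaatctg
Timm9, chr12:71136659-71136688, minus strand, motif at -1: catcactgccccCACGTGttctcagctttc
Tomm20, chr8:126946030-126946059, minus strand, motif at -126: gcacgccacaaaCACGTGctgcccctgacc
Tomm20l, chr12:71111391-71111420, plus strand, motif at -25: ccggggtttgctCACGTGtggctggcccgt

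Of the 27 import genes with a window, 5 held the motif, or 18.5%. It was held by 8.09% of the 27025 genes in the RefSeq table, by 11.4% of the 10066 tested genes that could be matched to it and by 15.04% of the 2540 matched genes called higher in malignant cells against wild type. The 4 tested genes with the motif, Timm9, Timm8a1, Timm10 and Tomm20, had log2 fold changes in malignant cells from 1.99 to 2.73, with a median of 2.42. The 21 tested genes with a window and no match ranged from -0.21 to 3.03, with a median of 0.92, and Chchd4, at the top of that range, is among them. A link between the motif and the fold changes was not tested. Tomm20l held the motif with no detected transcript. A match describes letters in the window and not a bound site, and Hspa9, Tomm40l and Tomm7 had no window.

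In the TIM23 translocase of the inner membrane, 3 of 4 genes were higher at both Eμ-Myc stages. Timm23, the channel-forming subunit (ENSMUSG00000013701, mm9 chr14:32993348-33015084, minus strand), measured 51.8 and 44.2 CPM in wild type, 124 and 124 CPM in premalignant and 218 and 183 CPM in malignant libraries. Its log2 fold changes were 1.37 ± 0.15 in premalignant and 2.06 ± 0.16 in malignant cells (edgeR adjusted p = 0.00296 and 0.000679). Timm50, the receptor that hands presequences to the channel, had log2 fold changes of 1.36 ± 0.12 in premalignant and 1.28 ± 0.12 in malignant cells.

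The channel partner Timm17 comes from a pair of genes, of which Timm17a was called higher and Timm17b was not. Timm17a (ENSMUSG00000062580, mm9 chr1:137198109-137210355, minus strand) measured 15.84 and 15.97 CPM in wild type, 33.0 and 32.3 CPM in premalignant and 56.1 and 36.6 CPM in malignant libraries. It rose by a log2 fold change of 1.04 ± 0.23 in premalignant and 1.54 ± 0.23 in malignant cells (edgeR adjusted p = 0.0188 and 0.00363). Timm17b (ENSMUSG00000031158, mm9 chrX:7476483-7485477, plus strand) measured 39.4 and 33.2 CPM in wild type, 44.1 and 44.1 CPM in premalignant and 30.5 and 32.3 CPM in malignant libraries. Timm17b was the one import gene with both malignant libraries below both wild type libraries, and its log2 fold change there, -0.21 ± 0.15, did not pass the test (edgeR adjusted p = 0.316).

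The ratio of Timm17a to Timm17b, in RPKM, was 0.654 and 0.782 in wild type, 1.22 and 1.19 in premalignant and 2.99 and 1.84 in malignant libraries, with no overlap between stages. The share of other gene pairs separated in this way is not given. Timm17b was the more abundant gene in wild type cells and Timm17a in the other stages, where lengths were taken from the union of exons. With the length of the longest transcript, the mean log2 ratio in wild type cells was 0.13 in place of -0.48, so the order within wild type cells depends on the length used, whereas the difference of 1.71 on the log2 scale between malignant and wild type cells does not. The ratio of Tomm40 to Tomm40l was 3.69 and 3.23, then 7.54 and 7.10, then 8.99 and 8.69.

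Within the presequence motor, Hspa9 had the largest fold changes. Hspa9, the mtHsp70 that binds the incoming chain, measured 152 and 143 CPM in wild type, 594 and 624 CPM in premalignant and 734 and 972 CPM in malignant libraries, and by the stage mean was the most abundant import gene per kilobase at both Eμ-Myc stages, although Tomm20 was above it in malignant replicate 1, at 221 against 187 RPKM. Its log2 fold changes were 2.05 ± 0.18 and 2.53 ± 0.18 (edgeR adjusted p = 0.00193 and 0.00063). Its partners had smaller ones. The nucleotide exchange factor Grpel1 had log2 fold changes of 0.99 and 0.97 and the membrane anchor Timm44 had 0.81 and 0.87, all past the thresholds. The J-protein Dnajc19 and its regulator Pam16 passed them in malignant cells, with log2 fold changes of 0.71 ± 0.20 and 0.68 ± 0.21, and not in premalignant cells, with 0.48 ± 0.20 and 0.28 ± 0.21 (edgeR adjusted p = 0.118 and 0.349). The ratio of Hspa9 to Grpel1, in RPKM, was 2.66 and 3.08 in wild type, 5.95 and 5.91 in premalignant and 7.23 and 9.68 in malignant libraries.

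The processing peptidase and the TIM22 translocase had the smallest median fold changes of the groups in malignant cells. Pmpca, the subunit that recognizes presequences, was higher in premalignant cells by a log2 fold change of 0.77 ± 0.12 and in malignant cells by 0.52 ± 0.12. Exons of Inpp5e on the opposite strand overlap 20.4% of its exonic bases. Pmpcb, the catalytic subunit, measured 50.02 and 46.7 CPM in wild type, 62.3 and 61.4 CPM in premalignant and 66.0 and 61.2 CPM in malignant libraries. Timm22, the channel of the carrier translocase, measured 28.1 and 24.4 CPM, 36.1 and 36.5 CPM, and 33.9 and 33.8 CPM in the same order. For both genes the libraries of wild type cells lay below all others, and both passed the FDR threshold at both Eμ-Myc stages with log2 fold changes under the minimum of 0.5. In malignant cells these were 0.40 ± 0.13 for Pmpcb and 0.37 ± 0.15 for Timm22 (edgeR adjusted p = 0.0514 and 0.0938). In premalignant cells they were 0.35 ± 0.13 and 0.47 ± 0.15 (edgeR adjusted p = 0.0862 and 0.0589).

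**Figure D4:**
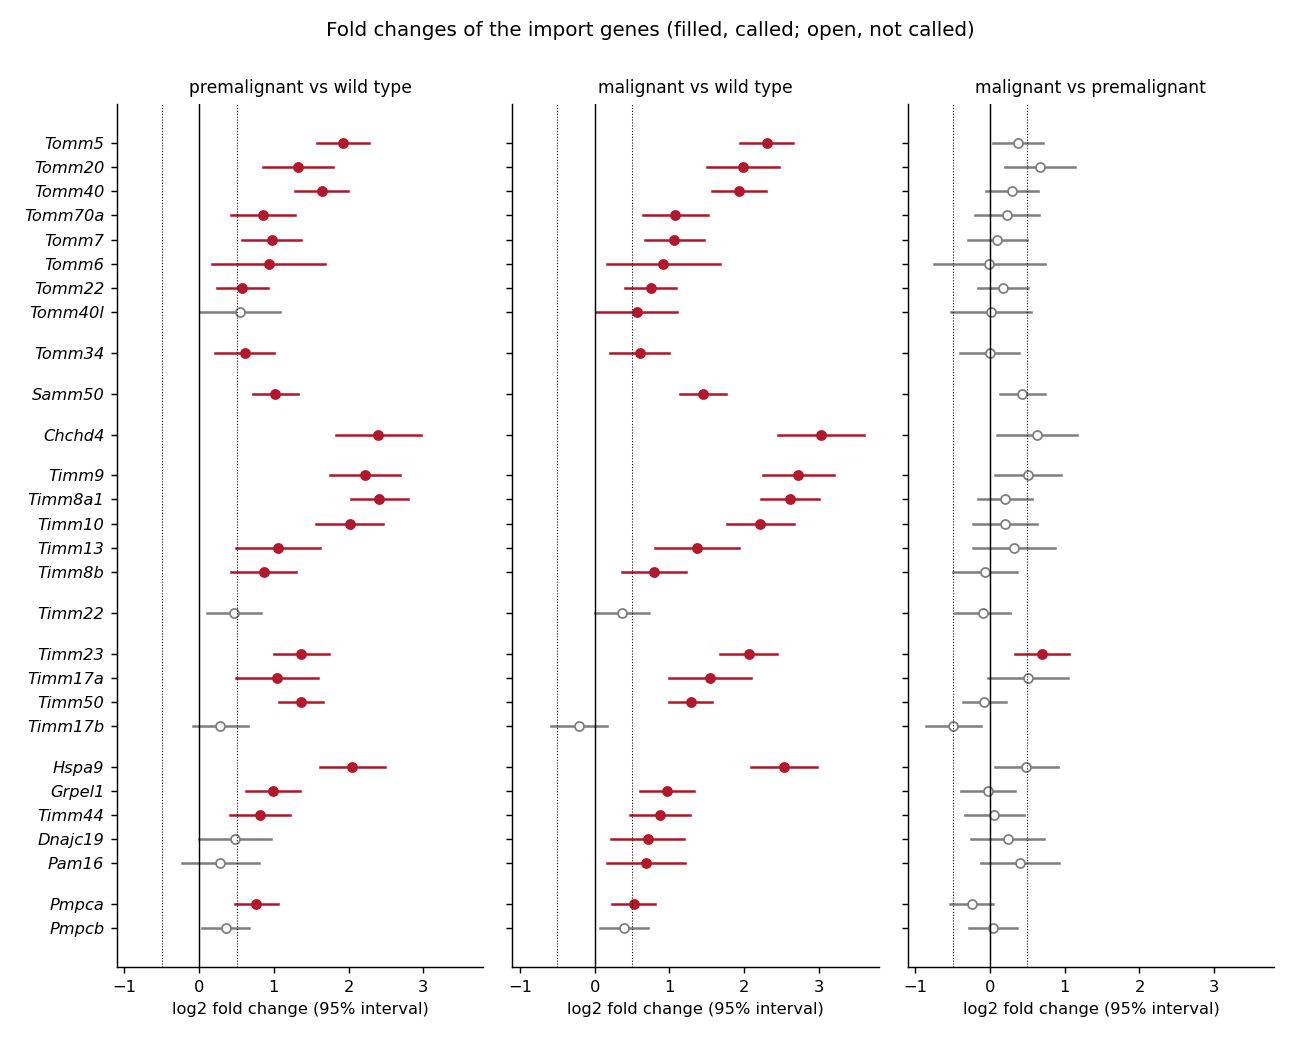
Points give the log2 fold change of each tested import gene with its 95% interval in the 3 comparisons, filled red where it was called higher and open grey where it was not called, and dotted lines mark 0.5 and -0.5. In both comparisons with wild type, Chchd4, Timm9, Timm8a1 and Hspa9 lie furthest to the right, and in malignant against premalignant cells Timm23 alone is filled.

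Between the Eμ-Myc stages the differences were small. In malignant against premalignant cells, 1 of the 28 genes was called higher and 0 lower, against 3.73% and 2.45% of all genes tested. The median log2 fold change was 0.20, with 0.04 for all genes. Both malignant libraries lay above both premalignant libraries for 14 genes and below for 5, shares to be read beside the 25.9% and 25.2% of all genes that were separated in these directions, and for the other 9 genes the stages overlapped.

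The gene called was Timm23, with a log2 fold change of 0.69 ± 0.15 (edgeR adjusted p = 0.0757), or 1.62-fold. Of the 50-base stretches in its exons, 56.7% also occur elsewhere in the genome, and their part in this change was not tested. Its call did not hold in fits of only these stages (edgeR adjusted p = 0.125), without either wild type library (0.138 and 0.135) or without either premalignant library (0.534 and 0.464), although its log2 fold change in these fits was 0.68 to 0.70. A further 6 genes, Tomm20, Chchd4, Timm9, Hspa9, Samm50 and Tomm5, were higher at an unadjusted p under 0.05, with log2 fold changes from 0.38 to 0.67, and failed the adjustment. Timm17b was the only gene lower at that level, with a log2 fold change of -0.49 ± 0.15 (edgeR adjusted p = 0.159). The share of all genes at that unadjusted level is not given, so these genes are listed as a description only. DESeq2 called Timm23 and Tomm20 higher and Timm17b lower.

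The replicates of a stage differed least in premalignant cells. There the median absolute log2 difference between the replicates of the 28 genes was 0.03, against 0.16 over all genes with counts in both libraries. It was 0.22 in wild type and 0.24 in malignant cells, where all genes gave 0.26 and 0.41. In malignant cells the import genes also differed in opposite directions. Timm13, Chchd4, Dnajc19, Hspa9 and Timm9 were higher in malignant replicate 2, by 0.65, 0.52, 0.42, 0.41 and 0.40 on the log2 scale, while Timm17a and Tomm20 were lower there, with differences of -0.62 and -0.45. In wild type cells, 22 of the 28 genes were lower in replicate 2, with a median difference of -0.20 against -0.00422 over all genes. That library had more myeloid and erythroid markers, but less of the T and NK markers (41.5 against 85.5 CPM). Its sum of the B-lineage and pre-B genes was higher (7371 against 6589 CPM). A link between these sums and the import genes was not tested.

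The balance between partner genes also differed between stages, in pairs that were chosen after their values were seen. The ratio of Chchd4 to Timm22, in RPKM, was 0.892 and 0.810 in wild type, 3.17 and 3.35 in premalignant and 4.43 and 6.38 in malignant libraries. That of Timm8a1 to Timm13 was 0.242 and 0.231, then 0.594 and 0.621, then 0.722 and 0.457. The ratio of Timm9 to Timm10, which share a hexamer, was 1.33 and 1.32, then 1.47 and 1.59, then 1.65 and 2.10, and that of the peptidase subunits Pmpca to Pmpcb was 1.82 and 1.91, then 2.43 and 2.53, then 2.02 and 2.06. In each of these pairs both libraries of either Eμ-Myc stage lay above both wild type libraries. For Pmpca to Pmpcb the malignant mean log2 ratio was only 0.13 above that of wild type. The share of other gene pairs separated in this way is not given, so these ratios are a description only.

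**Figure D5:**
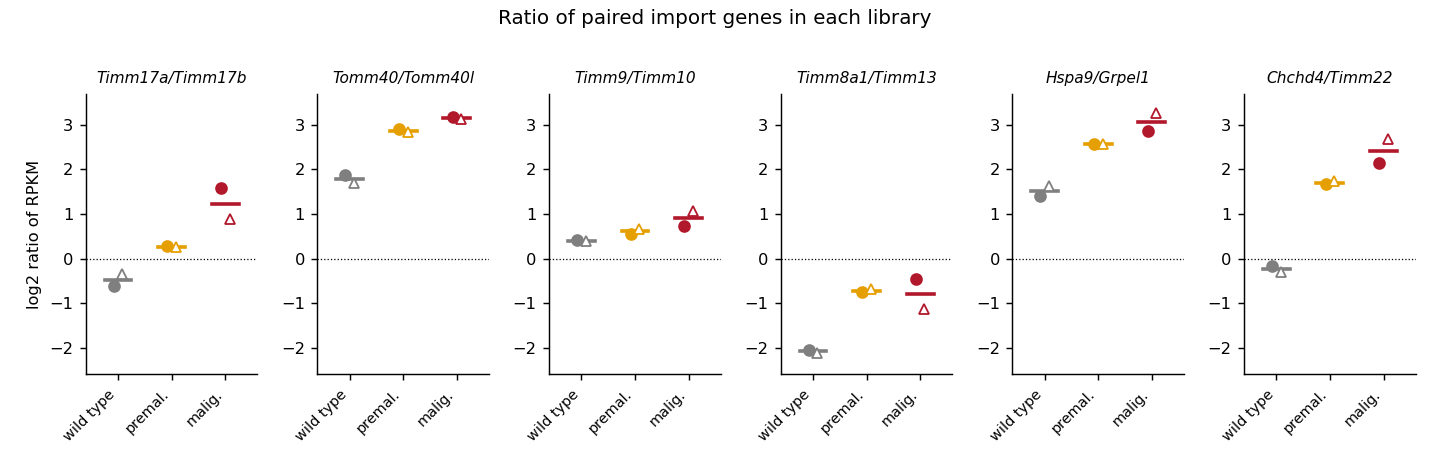
Each panel gives the log2 ratio of 2 import genes in RPKM in each library, with circles for replicate 1, triangles for replicate 2 and a bar for the stage mean. The ratio of Timm17a to Timm17b crosses 0 between wild type and premalignant cells.

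Other genes of import and maturation, from a list of 23 found in the files, all tested, showed the same direction where called. In malignant against wild type cells 17 of the 23 were called higher and 0 lower, with a median log2 fold change of 1.00, and in premalignant against wild type cells 13 were higher and 0 lower, with a median of 0.61. The summed level of the 23 was 949 and 884 CPM in wild type, 1508 and 1516 CPM in premalignant and 1718 and 1807 CPM in malignant libraries. The largest changes in malignant cells were those of the inner membrane peptidase gene Immp2l (log2 fold change 2.23), of Mipep, which trims an octapeptide after the processing peptidase (2.18), and of Pitrm1, which degrades the freed presequences (1.56). In premalignant cells they were those of Pitrm1 (1.68), Mipep (1.41) and Mtx2, a partner of Samm50 (1.27). Mipep was also the 1 gene of the 23 called in malignant against premalignant cells, with a log2 fold change of 0.78. Of all genes tested, 3.73% were called higher and 2.45% lower there. Fxc1, the former symbol of Timm10b, which encodes a small Tim protein of the TIM22 translocase, was not called and had log2 fold changes of -0.03 in premalignant and 0.02 in malignant cells. It was chosen after its values were seen.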

How the data were processed

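Polyadenylated RNA of 2 libraries from each of 3 stages was analysed, grouped by the labels. Per the labels, libraries were made with the TruSeq RNA v2 kit, which does not mark the strand, and the submitters' processing notes name CASAVA 1.8.2, Bowtie, HTSeq and the mm9 build. The authors' alignments were made with TopHat, and HTSeq then gave the raw counts per Ensembl gene that they deposited. HTSeq's options are not given in the sources used here. Deposited tables of the authors' own comparisons were not used. The study names individual animals as its biological replicates, and RNA was sequenced from 2 such replicates a stage.

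Symbols, coordinates and exon lengths came from GENCODE vM1 (NCBIM37, mm9), in which 37205 of the identifiers have a symbol and 786 have none. All 6 libraries entered 1 fit of edgeR 4.0.16 (R 4.3.3) with TMM scaling, edgeR's default filter and Benjamini-Hochberg adjustment over 16683 genes, using the study's thresholds. Standard errors came from the log2 fold change and its F statistic. TMM takes most genes as unchanged, and a change in total RNA per cell would not be seen. In malignant against wild type cells, 24.9% of genes were called higher and 24.3% lower. RPKM was computed from scaled CPM and union exon length. DESeq2 1.42.0 and other scalings, filters, thresholds and leaving out each library were alternatives. The fits were tested on simulated data. Replicate 1 libraries held between 51065861 and 53453055 counts and replicate 2 libraries between 30031100 and 34543633, so depth followed the replicate number and not the stage. Replicates differed by more than sampling noise.

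Every member was named. Values per library were set for the members called between Eμ-Myc stages, the 3 largest and 3 smallest changes in malignant cells and the paralogue pairs, and other members shown per library were chosen after their values were seen. Members and lists were chosen with earlier results of these data known.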

Additional observations from a re-analysis of the deposited data

How the results depend on the processing

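Against wild type, the sign of the log2 fold change held for each of the 28 genes in all 14 fits, and 0 were called lower under any setting. In malignant against wild type cells 25 genes were higher, with 21 to 25 when a library was left out and 15 with a minimum log2 fold change of 1. In premalignant against wild type cells 22 were higher, with 14 to 25 when a library was left out, the lowest without either premalignant library, and 13 at that fold change. In malignant against premalignant cells 1 was higher, with 2 by DESeq2, 3 with no filter on low counts, and 0 in fits of only these stages, at an FDR of 0.05 and with a minimum log2 fold change of 1. It was 0 to 5 when a library was left out, with 5 without malignant replicate 1, 3 without malignant replicate 2 and 0 without any other library. The count of genes lower there, 0, was 1 by DESeq2 and 0 to 1 when a library was left out. The cause was not tested.

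Over all genes tested, 623 were higher in malignant than premalignant cells, against 1149 by DESeq2, 1438 with no filter, 194 with only these stages, 1563 and 1796 without malignant replicates 1 and 2, 176 and 175 without wild type replicates 1 and 2, and 0 without either premalignant library. In premalignant against wild type cells 3169 were higher, against 1510 and 1231 without premalignant replicates 1 and 2 and 1740 without wild type replicate 2. Upper-quartile scaling shifted all genes in malignant against wild type cells by a median of -0.17 on the log2 scale, with 21 import genes then higher, and the higher share of all calls in malignant against premalignant cells from 60.4% to 49.7%.

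Near 0, some log2 fold changes in malignant against premalignant cells changed sign. Upper-quartile scaling gave -0.024 for Timm44, -0.066 for Tomm40l and -0.041 for Pmpcb. Tomm40l was also at -0.013 by DESeq2, -0.00627 by relative log scaling, -0.0126 with at least 10 counts in every library and -0.000478 with only these stages. When a library was left out, the ranges were -0.10 to 0.16 for Timm44, -0.11 to 0.091 for Tomm40l, -0.20 to 0.13 for Tomm34, -0.077 to 0.61 for Timm13, -0.023 to 0.43 for Dnajc19, -0.00315 to 0.16 for Tomm7, -0.016 to 0.059 for Pmpcb, -0.067 to 0.017 for Grpel1 and -0.16 to 0.16 for Tomm6. The mean log2 ratio of Timm17a to Timm17b in wild type cells was 0.13 with the longest transcript.

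Libraries of the stages share the replicate numbers 1 and 2, for which the labels give no common litter, batch or day, although depth also followed the number. Deviations of same-numbered libraries correlated at 0.51 between wild type and premalignant, 0.19 between wild type and malignant and 0.26 between premalignant and malignant cells. With the replicate number as a block, 24, 22 and 1 import genes were higher in malignant against wild type, premalignant against wild type and malignant against premalignant cells, and Tomm6 was at 9.09e-05 in the last. The call lost was that of Tomm40l in malignant against wild type cells (log2 fold change 0.56, adjusted p = 0.14 by edgeR). With 2 libraries a stage, a difference that failed a threshold is not shown to be absent.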
